A study of Rattus norvegicus with 42 samples.

Results

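The genes described here encode subunits of the phagocyte NADPH oxidase and 1 related oxidase. They are Cybb, Cyba, Ncf1, Ncf4, Rac2 and Nox4, which were found by symbol among the 32623 genes of the count table of rat retina, 1 row each. All 6 passed the filter on low counts. PolyA RNA of whole retina was sequenced from adult rats in 6 groups that combine damaging light with intravitreal cerium oxide nanoparticles (nanoceria), which scavenge oxidants, or their vehicle. The nanoceria plus light group (5 libraries) received 1 mM nanoceria into the vitreous and light of 15000 lux for 24 h, and the nanoceria group (4 libraries) the injection alone. The vehicle plus light group (5 libraries) received vehicle into the vitreous and the same light, and the vehicle group (5 libraries) that injection alone. The light damage group (7 libraries) was exposed to the light without an injection, and the control group (5 libraries) was left untreated. The sources used here do not give strain, age or the interval between injection, light and dissection. The labels call the libraries biological replicates and do not say whether 1 retina or several went into each.

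The phagocyte NADPH oxidase passes electrons from NADPH across a membrane to oxygen and so makes superoxide, which kills microbes and also acts as a signal. Its catalytic core is a membrane heterodimer of gp91phox, encoded by Cybb, and p22phox, encoded by Cyba, and it is switched on when cytosolic subunits, those of Ncf1 and Ncf4 among them, and a GTP-bound Rac protein join it. In the retina the complete enzyme is best known from microglia and from leukocytes that enter from the blood. Nox4 is a relative that also pairs with p22phox, makes hydrogen peroxide without the cytosolic subunits, and is found in vessel wall and other cells.

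The promoters of 3 members are printed. Cybb and Ncf1 were called higher both in light damage over control and in nanoceria over control, which includes the injection. Cyba was called in no comparison. Each is the 250 bases before the RefSeq start of the gene in the GRCr8 build, read 5′ to 3′ on the strand of the gene, at chrX:16065066-16065315 on the minus strand for Cybb, chr12:28121635-28121884 on the plus strand for Ncf1 and chr19:67404215-67404464 on the minus strand for Cyba. Capitals mark TTCCTC, which is GAGGAA on the other strand, the core letters bound by PU.1, a myeloid transcription factor, and they hold the shorter ETS letters GGAA.
Cybb: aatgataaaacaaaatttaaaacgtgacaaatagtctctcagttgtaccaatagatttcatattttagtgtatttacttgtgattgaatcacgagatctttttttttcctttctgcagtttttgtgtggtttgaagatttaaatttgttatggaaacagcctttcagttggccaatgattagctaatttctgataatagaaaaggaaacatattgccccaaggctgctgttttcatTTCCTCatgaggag
Ncf1: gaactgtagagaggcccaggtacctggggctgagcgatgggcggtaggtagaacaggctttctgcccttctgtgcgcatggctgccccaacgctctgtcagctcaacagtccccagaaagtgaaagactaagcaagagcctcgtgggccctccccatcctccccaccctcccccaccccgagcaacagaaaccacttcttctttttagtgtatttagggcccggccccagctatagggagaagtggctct
Cyba: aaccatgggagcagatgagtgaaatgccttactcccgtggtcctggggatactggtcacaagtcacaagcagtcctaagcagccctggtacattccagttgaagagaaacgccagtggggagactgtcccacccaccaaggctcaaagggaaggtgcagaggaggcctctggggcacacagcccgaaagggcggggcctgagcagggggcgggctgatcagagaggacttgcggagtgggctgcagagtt
The letters lay 14 to 9 bases before the start of Cybb. They were not in these windows of Ncf1, Cyba and Nox4. Of all 33469 RefSeq promoters of the same length, 7812 (23.3%) held them on either strand, so a match in 1 of the 4 member promoters searched is a description only. Ncf4 and Rac2 are named only.

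Total counts lay between 25158407 and 182162368 per library. Rod markers such as rhodopsin and transducin marked the tissue as retina in every group. Their summed level was 4737 to 21253 CPM (counts scaled to a common library size) over the 3 light-exposed groups and 30607 to 58334 CPM over the 3 groups without light. Within 2 groups a pair of libraries lay far closer together than any other: vehicle replicates 4 and 7, and light damage replicates 4 and 7. They still differed by more than counting noise, with a median chi-square per gene of 1.16 and 1.80, against 0.455 from counting alone and 6.17 in the next closest pair. They were kept as separate libraries, and results with each pair summed to 1 are given beside those they touch. Vehicle plus light replicate 2 had the highest Cybb, Ncf1 and Rac2 of all 31 libraries, and control replicate 1 the lowest Cybb, Ncf1, Ncf4 and Rac2. Results are given with and without them where that changes a call. Levels below are CPM after TMM scaling, which adjusts library sizes for RNA composition. They are not divided by gene length, so they compare libraries for 1 gene and not genes with each other. In bulk RNA more cells of a type and more RNA per cell cannot be told apart.

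**Figure D1:**
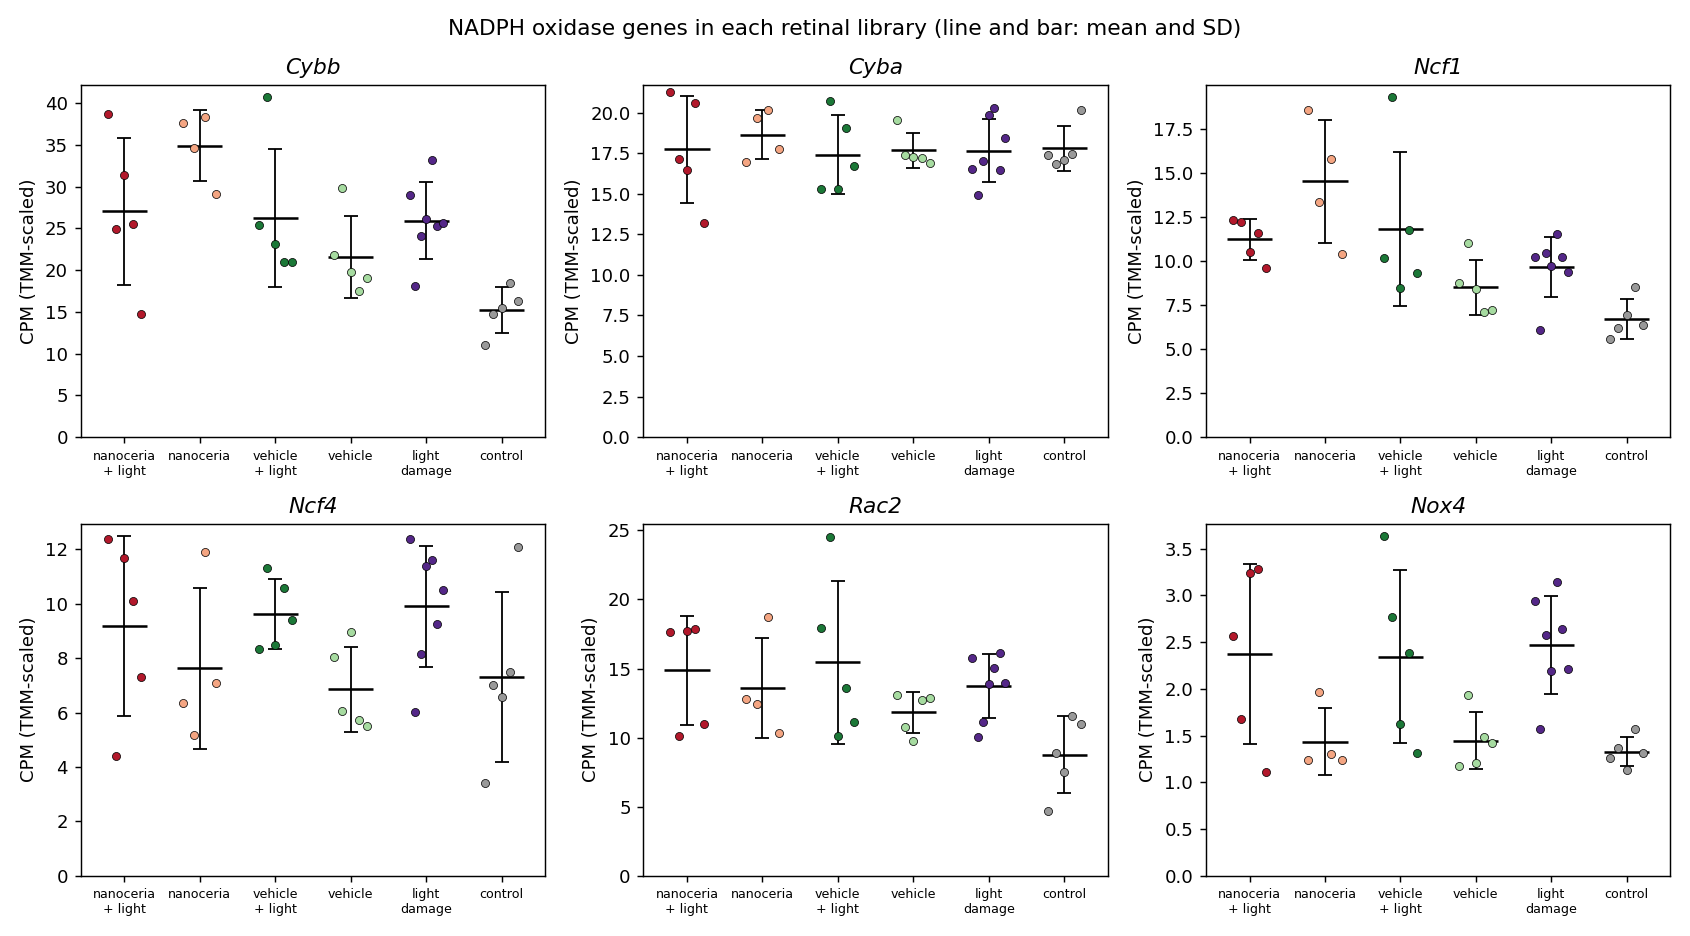
CPM of the 6 genes in each library (points), by group, with the mean (line) and SD (bar) and a linear axis that starts at 0. Cybb and Ncf1 were high in all 4 nanoceria libraries against all 5 control libraries, Nox4 was higher in all 7 light damage libraries than in any control library, and Cyba stayed between 13.2 and 21.3 CPM in all 31.

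Cybb, the catalytic electron channel of the oxidase, was higher after light in uninjected retinas and after nanoceria without light. Its level was 38.7, 25.0, 31.4, 25.5 and 14.8 CPM in nanoceria plus light (mean 27.1 ± 8.82, SD, n = 5) and 37.7, 34.6, 38.4 and 29.1 CPM in nanoceria (34.9 ± 4.22, n = 4). It was 25.4, 40.7, 23.2, 21.0 and 21.0 CPM in vehicle plus light (26.2 ± 8.29, n = 5) and 21.8, 29.9, 19.7, 17.5 and 19.1 CPM in vehicle (21.6 ± 4.87, n = 5). Light damage libraries ran between 18.1 and 33.2 CPM with a median of 25.7 (25.9 ± 4.62, n = 7), and control libraries had 10.97, 14.7, 15.4, 18.4 and 16.4 CPM (15.2 ± 2.74, n = 5). All 4 nanoceria libraries lay above all 5 control libraries, and 6 of 7 light damage libraries lay above the highest control library, while the others overlapped. From high to low the group means ran nanoceria, nanoceria plus light, vehicle plus light, light damage, vehicle and control, and each group overlapped with its neighbours in that order. The log2 fold change was 0.77 ± 0.20 (SE) for light damage over control, a 1.71-fold rise with a 95% interval of 1.29 to 2.25 (edgeR adjusted p = 0.00441). For nanoceria over control it was 1.20 ± 0.22, a 2.30-fold rise with an interval of 1.69 to 3.14 (edgeR adjusted p = 0.00365). Both calls held in every alternative run, 22 for light and 19 for nanoceria. Nanoceria over control includes the injection, and Cybb did not pass in nanoceria over vehicle (edgeR adjusted p = 0.445).

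Cyba, the p22phox partner that stabilises both gp91phox and Nox4, was called in no comparison. It was 21.3, 17.2, 16.5, 20.6 and 13.2 CPM in nanoceria plus light and 17.0, 19.7, 20.2 and 17.8 CPM in nanoceria. It was 15.3, 20.8, 15.3, 19.1 and 16.7 CPM in vehicle plus light, 19.6, 17.4, 17.3, 17.2 and 16.9 CPM in vehicle, 14.96 to 20.3 CPM (median 17.1) in light damage and 17.4, 16.8, 17.1, 17.5 and 20.2 CPM in control. All 6 groups overlapped, and the highest library, nanoceria plus light replicate 1, was 1.62 times the lowest, nanoceria plus light replicate 5. The difference was -0.01 ± 0.10 log2 for light damage over control, with a 95% interval of -0.21 to 0.19, and 0.07 ± 0.11 for nanoceria over control, with an interval of -0.17 to 0.30. Those intervals bound a change of either sign at 1.23-fold.

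Ncf1, the p47phox organiser that carries the other cytosolic subunits to the membrane once phosphorylated, was called in the same comparisons as Cybb. It had 12.3, 12.2, 10.5, 11.5 and 9.60 CPM in nanoceria plus light (11.2 ± 1.16, n = 5) and 18.6, 13.4, 15.8 and 10.4 CPM in nanoceria (14.5 ± 3.49, n = 4). It had 10.2, 19.3, 8.47, 11.7 and 9.29 CPM in vehicle plus light (11.8 ± 4.36, n = 5) and 8.75, 10.98, 8.41, 7.11 and 7.21 CPM in vehicle (8.49 ± 1.57, n = 5). Light damage libraries ran between 6.08 and 11.5 CPM with a median of 10.2 (9.65 ± 1.72, n = 7), against 5.55, 6.20, 6.93, 8.53 and 6.35 CPM in control (6.71 ± 1.13, n = 5). The nanoceria and control libraries did not overlap, and 6 of 7 light damage libraries were above every control library, the exception being replicate 2. The highest mean was in nanoceria, followed by vehicle plus light, nanoceria plus light, light damage, vehicle and control, with overlap between all neighbours. Ncf1 was 2.16-fold higher in nanoceria than in control (95% interval 1.62 to 2.88, log2 1.11 ± 0.20, edgeR adjusted p = 0.00356), a call that held in all 19 alternatives. That contrast includes the injection, and Ncf1 did not pass in nanoceria over vehicle (edgeR adjusted p = 0.321). Ncf1 was 1.44-fold higher in light damage than in control (1.11 to 1.85, log2 0.52 ± 0.18, edgeR adjusted p = 0.0344). That call held in 11 of 22 alternatives. It was lost with the near-identical libraries summed (edgeR adjusted p = 0.0503), with a term for Y-linked transcripts (0.0593), and without control replicate 1, 2, 4 or 6 or light damage replicate 3, 5 or 6 (0.0559 to 0.0969). A block for the replicate number and limma-voom on the summed libraries lost it as well.

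Ncf4, the p40phox subunit that binds phosphoinositide on phagosomes, had a fitted spread between libraries close to that of Nox4. Its level was 12.4, 4.41, 11.7, 10.1 and 7.32 CPM in nanoceria plus light, 6.37, 5.19, 11.9 and 7.07 CPM in nanoceria, 8.34, 11.3, 8.49, 10.6 and 9.41 CPM in vehicle plus light and 8.05, 6.04, 8.98, 5.71 and 5.52 CPM in vehicle. Light damage libraries had 6.04 to 12.4 CPM (median 10.5), and control libraries 3.40, 7.01, 6.57, 7.50 and 12.1 CPM. Every pair of groups compared overlapped, and the biological coefficient of variation was 30.2%, with 29.02% for Nox4 and 12.8% for Cyba. Light gave 0.43 ± 0.26 log2 over control (95% interval -0.09 to 0.96, edgeR adjusted p = 0.251). Without control replicate 6, the highest of its group, the same comparison gave 0.70 (edgeR adjusted p = 0.0427), and limma-voom gave 0.53 (adjusted p = 0.0490). Nanoceria over control was 0.06 ± 0.29 (-0.53 to 0.66).

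Rac2, the Rac GTPase of blood cells that activates gp91phox, was higher in light damage than in control. It measured 17.6, 10.1, 17.7, 17.8 and 10.999 CPM in nanoceria plus light, 12.8, 12.4, 18.7 and 10.3 CPM in nanoceria, 17.9, 24.5, 10.1, 13.6 and 11.1 CPM in vehicle plus light and 13.1, 10.8, 9.76, 12.8 and 12.9 CPM in vehicle. Light damage libraries ran between 10.1 and 16.2 CPM (median 14.0), against 4.70, 8.92, 7.55, 11.6 and 11.01 CPM in control. Of the light damage libraries, 5 of 7 were above every control library and the groups overlapped. The rise was 1.56-fold (95% interval 1.14 to 2.14, log2 0.65 ± 0.22, edgeR adjusted p = 0.0346). It held in 11 of 22 alternatives. Without control replicate 1 it was 0.49 (edgeR adjusted p = 0.122), and with the near-identical libraries summed 0.64 (edgeR adjusted p = 0.0566). It was also lost without control replicate 2 or 4 or light damage replicate 1, 4, 5, 6 or 7 (edgeR adjusted p between 0.0501 and 0.0844). A block for the replicate number and limma-voom on the summed libraries lost it as well. For nanoceria over control Rac2 was at 0.63 ± 0.25, with 3 of 4 nanoceria libraries above every control library, and did not pass (edgeR adjusted p = 0.206).

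Nox4, the oxidase that makes hydrogen peroxide without cytosolic subunits, was called for light and in no injection comparison. Its level was 2.57, 1.68, 3.24, 3.28 and 1.11 CPM in nanoceria plus light (2.38 ± 0.962, n = 5) and 1.24, 1.97, 1.299 and 1.23 CPM in nanoceria (1.44 ± 0.357, n = 4). It was 3.64, 2.77, 1.62, 2.38 and 1.31 CPM in vehicle plus light (2.35 ± 0.928, n = 5) and 1.17, 1.94, 1.21, 1.48 and 1.42 CPM in vehicle (1.45 ± 0.305, n = 5). Light damage libraries ran between 1.57 and 3.14 CPM with a median of 2.58 (2.47 ± 0.525, n = 7), against 1.26, 1.37, 1.14, 1.57 and 1.31 CPM in control (1.33 ± 0.159, n = 5). Every light damage library was above every control library, the nearest ones both rounding to 1.57 CPM, and 3 of 5 light-exposed libraries were above every unexposed one in each of the injected pairs. Light damage over control was 1.85-fold (95% interval 1.297 to 2.63, log2 0.89 ± 0.25, edgeR adjusted p = 0.00994), a call that held in all 22 alternatives. Nanoceria over control gave 0.11 ± 0.28 (-0.46 to 0.68). Markers of the vessel wall stood beside this, in a comparison where 22.5% of all genes were called. Of 6 endothelial markers 2 were higher and 1 lower in light damage than in control. Their summed levels were 419 to 480 CPM in light damage and 450 to 592 CPM in control. Of 6 pericyte and smooth muscle markers edgeR called 0 in light damage over control. Averaged over the 3 light comparisons, 2 endothelial markers were higher and 3 lower, where 37.1% of all genes were called. In that average 1 pericyte and smooth muscle marker was higher and 2 were lower. The part of vessel wall cells in the Nox4 result was not tested. Behind the Nox4 levels stood 60 to 528 counts per library, the fewest in light damage replicate 1, the shallowest library.

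Across the members, light raised 4 of 6 in uninjected retinas, namely Cybb, Ncf1, Rac2 and Nox4, where 22.5% of the 18094 genes tested were called and 11.9% were called higher. The median log2 fold change of the 6 was 0.58, against -0.01 over all genes tested. Among vehicle-injected retinas edgeR called 0 of 6 (background 16.8%), 2 at an unadjusted p under 0.05, as were 5126 of the 18094 genes tested. Ncf1 was at 0.47 ± 0.19 (edgeR adjusted p = 0.0901), Nox4 at 0.70 ± 0.26 (0.0692) and Cybb at 0.28 ± 0.21 with a 95% interval of -0.14 to 0.71. Both Ncf1 and Nox4 passed without vehicle plus light replicate 3 (edgeR adjusted p = 0.0412 and 0.0408) or without vehicle replicate 2 (0.0487 and 0.0474), and Nox4 also without vehicle plus light replicate 6 (0.0235). DESeq2 called 0 and limma-voom with sample weights 4, which were 0 once the near-identical libraries were summed. Among nanoceria-injected retinas edgeR and DESeq2 called 0 of 6 (background 13.9%), and limma-voom called 1, Nox4. With edgeR 1 was at an unadjusted p under 0.05, as were 4715 of the 18094 genes tested. There Cybb was at -0.37 ± 0.22 (interval -0.81 to 0.08) and Ncf1 at -0.37 ± 0.20 (-0.78 to 0.04), while Nox4 was at 0.73 ± 0.28 (0.15 to 1.304, edgeR adjusted p = 0.0870). Without nanoceria plus light replicate 5, which had the lowest Cybb and Nox4 of its group, Nox4 passed at 0.91 (edgeR adjusted p = 0.0196), and without replicate 2 at 0.83 (edgeR adjusted p = 0.0494).

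**Figure D2:**
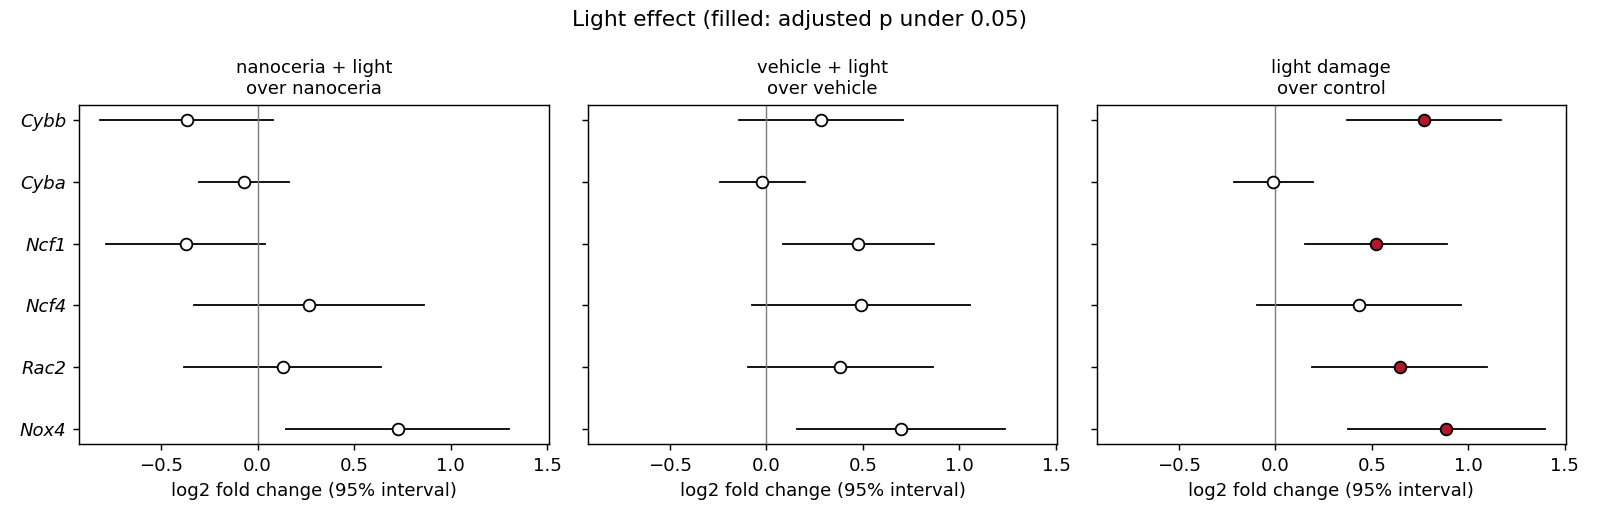
Log2 fold change of light for each gene with its 95% interval, in nanoceria-injected, vehicle-injected and uninjected retinas; filled points passed an adjusted p of 0.05. Nox4 sits at 0.73, 0.70 and 0.89 in the 3 panels, Cyba close to 0 in each, and Cybb and Ncf1 at -0.37 in the nanoceria panel against 0.77 and 0.52 in the uninjected one.

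Averaged over the 3 light comparisons, 3 of 6 members were higher, where 37.1% of all genes were called and 20.5% were called higher. They were Nox4 at 0.77 ± 0.15 (edgeR adjusted p = 0.000187), Rac2 at 0.39 ± 0.14 (0.0253) and Ncf4 at 0.40 ± 0.16 (0.04998, just under the threshold). The Nox4 call held in all 40 alternatives, that of Rac2 in 37 and that of Ncf4 in 13. For Ncf4, leaving out each library in turn gave 0.34 to 0.50 (edgeR adjusted p between 0.0110 and 0.0997), and 9 of 31 such fits called it. Rac2 lost it without vehicle plus light replicate 2 (0.31, edgeR adjusted p = 0.0573) and without nanoceria replicate 5 (0.35, edgeR adjusted p = 0.0542). With a block for the replicate number both Rac2 and Ncf4 lost the call. Cybb averaged 0.23 ± 0.12 (edgeR adjusted p = 0.141) and Ncf1 0.21 ± 0.11 (0.143).

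The interaction test, of nanoceria-injected against uninjected retinas in their light response, called 0 of 6 members with edgeR (background 0.409%). At an unadjusted p under 0.05 there were 2 of the 6, and 1787 of the 18094 genes tested. Cybb had the largest difference of the 6, at -1.14 ± 0.29 log2 with a 95% interval of -1.74 to -0.54 (edgeR adjusted p = 0.0800), followed by Ncf1 at -0.89 ± 0.27 (-1.45 to -0.34, edgeR adjusted p = 0.158). DESeq2 called both (adjusted p = 0.0101 for Cybb and 0.0431 for Ncf1) and limma-voom neither. Cybb passed with edgeR without light damage replicate 2 (adjusted p = 0.0388) or without nanoceria plus light replicate 1 (adjusted p = 0.0439). For Nox4 the difference was -0.16 ± 0.37, with an interval of -0.92 to 0.60 that spans responses of unlike size. The test between vehicle-injected and uninjected retinas called 0 of 6 (background 0.0442%), 0 at an unadjusted p under 0.05, against 1059 of the 18094 genes tested. That between nanoceria-injected and vehicle-injected retinas called 0 (background 0%). At an unadjusted p under 0.05 there were 2, Ncf1 at -0.85 ± 0.28 and Cybb at -0.65 ± 0.30, against 415 of all genes tested. DESeq2 and limma-voom called 0 in both tests.

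Without light, nanoceria over control raised 2 of 6 members, Cybb and Ncf1, where 2.46% of all genes tested were called and 1.73% were called higher. The median of the 6 was 0.37, against -0.04 over all genes. This contrast includes the injection. Vehicle over control called 0 of 6 with edgeR, DESeq2 and limma-voom (background 0.0221%). With edgeR 1 was at an unadjusted p under 0.05, as were 1462 of the 18094 genes tested. Cybb was at 0.51 ± 0.21 (95% interval 0.08 to 0.93, edgeR adjusted p = 0.537) with 4 of 5 vehicle libraries above every control library. Nanoceria over vehicle called 0 of 6 with edgeR and DESeq2 (background 0%). With edgeR 2 were at an unadjusted p under 0.05, as were 1021 of all genes tested. Here Cybb was at 0.69 ± 0.22 (0.25 to 1.14, edgeR adjusted p = 0.445) and Ncf1 at 0.77 ± 0.20 (0.36 to 1.19, edgeR adjusted p = 0.321), with 3 of 4 nanoceria libraries above every vehicle library for both. Limma-voom called both (adjusted p = 0.000937 for Cybb and 0.00135 for Ncf1), and called 0 once the near-identical libraries were summed.

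**Figure D3:**
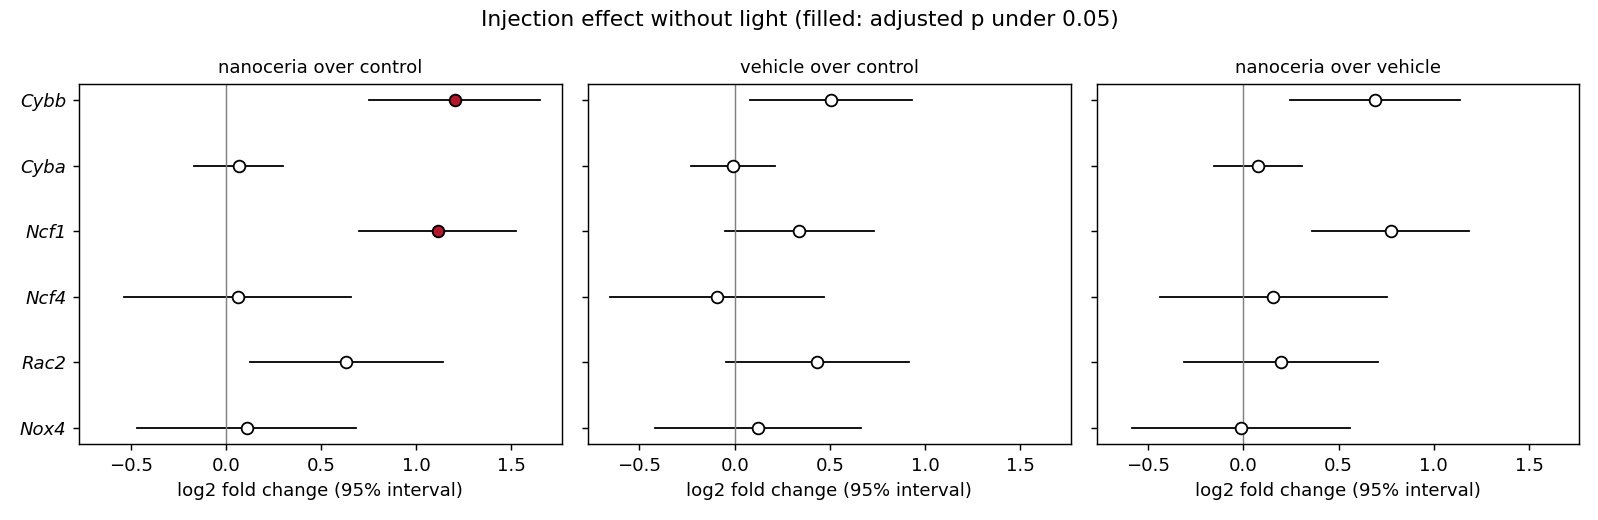
Log2 fold change of injection without light for each gene with its 95% interval, as nanoceria over control, vehicle over control and nanoceria over vehicle; filled points passed an adjusted p of 0.05. Cybb and Ncf1 are filled in the first panel, at 1.20 and 1.11, and Ncf4, Nox4 and Cyba stay within 0.16 of 0 in all 3 panels.

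The mean of both injections over control, without light, called the same 2 members (background 1.07%, 0.669% higher), Cybb at 0.85 ± 0.19 (edgeR adjusted p = 0.0243) and Ncf1 at 0.73 ± 0.17 (0.0361). Neither call held with a term for Y-linked transcripts (edgeR adjusted p = 0.0611 for Cybb and 0.110 for Ncf1). Those transcripts were high in 2 of 4 nanoceria, 1 of 5 vehicle and 4 of 5 control libraries, and in 3 of 5 nanoceria plus light, 2 of 5 vehicle plus light and 4 of 7 light damage libraries. Both calls were also lost without control replicate 1, 2 or 4 (edgeR adjusted p between 0.0608 and 0.1004), and with a block for the replicate number. The Ncf1 call was lost too without control replicate 6, nanoceria replicate 1, 2 or 3 or vehicle replicate 2, and with the near-identical libraries summed (0.0503 to 0.0776). Limma-voom on the summed libraries lost the Ncf1 call as well.

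Under light, no member was called between injections. Vehicle plus light over light damage called 0 of 6 (background 0.122%), nanoceria plus light over light damage 0 (background 0.0608%), nanoceria plus light over vehicle plus light 0 (background 0%) and the mean of both injections over light damage 0 (background 0.486%). In all 4 comparisons 0 passed an unadjusted p under 0.05, and DESeq2 and limma-voom called 0. Of the 18094 genes tested, 1482, 1223, 257 and 1945 passed an unadjusted p under 0.05, in the order named. Nanoceria plus light over vehicle plus light gave a log2 fold change of 0.04 for Cybb (95% interval -0.38 to 0.47), -0.07 for Ncf1 (-0.46 to 0.32) and 0.02 for Nox4 (-0.51 to 0.55).

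The list of other oxidase genes, as reported here, held 13 symbols, of which 12 were in the file and 11 were tested. Their median log2 fold change was -0.35 for light damage over control and -0.45 for nanoceria over control, against -0.01 and -0.04 over all genes tested. The edgeR fit called 0 of the 11 in light damage over control, vehicle plus light over vehicle, nanoceria plus light over nanoceria and nanoceria over control. The shares of all genes called there were 22.5%, 16.8%, 13.9% and 2.46%. At an unadjusted p under 0.05 there were 2, 0, 2 and 3 of the 11 in the same order. Of the 18094 genes tested there were 5975, 5126, 4715 and 2571. The light average called 1 higher and 1 lower of the 11, where 37.1% of all genes were called. They were Rac1, the ubiquitous Rac, at 0.19 ± 0.06 (edgeR adjusted p = 0.0172), and Duox2, a calcium-activated oxidase of epithelia, at -0.90 ± 0.34 (edgeR adjusted p = 0.0395, under 0.05 in 19 of 40 alternatives).

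Genes that drive assembly of the oxidase were counted in the same way. Of 17 activators 6 were higher and 0 lower in light damage than in control, where 22.5% of all genes were called. The first 4 by adjusted p were Itgb2, the integrin chain that triggers the oxidase in adherent leukocytes (1.71 ± 0.28), Vav1, an exchange factor for Rac (1.07 ± 0.20), Fcgr1a, an IgG receptor (1.08 ± 0.22), and Btk, a kinase downstream of such receptors (1.04 ± 0.24). These 4 calls held in all 22 alternatives, and the remaining ones in only 15 and 10 of 22. In vehicle plus light over vehicle 3 of 17 were higher, a share near the 16.8% of all genes called there. They were Itgb2 (1.22 ± 0.29), Vav1 (0.77 ± 0.21) and Prex1, another exchange factor (0.38 ± 0.14, edgeR adjusted p = 0.0496). Prex1 held in 8 of 20 alternatives, and without vehicle plus light replicate 2 both Prex1 (0.25) and Vav1 (0.57, edgeR adjusted p = 0.0686) missed. In nanoceria plus light over nanoceria edgeR called 0 of 17 (background 13.9%). At an unadjusted p under 0.05 there were 0, against 4715 of the 18094 genes tested. The light average called 5 of 17 higher and 1 lower, where 37.1% of all genes were called. The lower one was Prkca, under 0.05 in 39 of 40 alternatives. Nanoceria over control raised 5 of 17, where 2.46% of all genes were called, led by Dock2, the main Rac exchange factor of leukocytes (1.17 ± 0.23), Vav1 (1.05 ± 0.23), Fcgr1a (1.07 ± 0.25) and Itgb2 (1.296 ± 0.30). Without nanoceria replicate 3 the calls of Vav1, Fcgr1a and Itgb2 were lost (edgeR adjusted p between 0.0530 and 0.0597), those of Fcgr1a also without replicate 2 (0.0534) and of Itgb2 without replicate 1 (0.0713). Nanoceria over control includes the injection. In nanoceria over vehicle edgeR called 0 of 17, 5 at an unadjusted p under 0.05, as were 1021 of the 18094 genes tested. Vehicle over control called 0, 4 at an unadjusted p under 0.05, as were 1462 of all genes tested. The median of the 17 was 0.09 for light damage over control and -0.04 for nanoceria over control, against -0.01 and -0.04 over all genes.

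Marker counts below stand beside a share of all genes called of 13.9% in nanoceria plus light over nanoceria, 2.46% in nanoceria over control, 16.8% in vehicle plus light over vehicle and 22.5% in light damage over control. It was 0% in nanoceria over vehicle and 0.0221% in vehicle over control. At an unadjusted p under 0.05 there were 5975 of the 18094 genes tested in light damage over control and 5126 in vehicle plus light over vehicle. There were 1462 in vehicle over control and 1021 in nanoceria over vehicle. Of 16 microglia and macrophage markers tested, 13 were higher and 0 lower in nanoceria than in control, 5 higher and 2 lower in light damage than in control, 1 higher and 1 lower in vehicle plus light than in vehicle, and 0 higher and 4 lower in nanoceria plus light than in nanoceria. Nanoceria over control includes the injection. Nanoceria over vehicle called 0 of the 16 (13 at an unadjusted p under 0.05), and vehicle over control called 0 (8 at an unadjusted p under 0.05). The summed level of the 16 was 393 to 640 CPM in nanoceria plus light, 477 to 698 CPM in nanoceria, 443 to 612 CPM in vehicle plus light, 415 to 534 CPM in vehicle, 323 to 521 CPM in light damage and 303 to 484 CPM in control. Of 9 neutrophil markers tested, 5 were higher in light damage than in control, 3 in vehicle plus light than in vehicle and 2 in nanoceria than in control, and their sum was at most 22.6 CPM in any library, in vehicle plus light replicate 2. Elane was at 0 in every control library and Ltf in every vehicle library. Of 5 recruited monocyte markers 3 were higher in light damage and 1 in nanoceria than in control, and of 11 lymphocyte markers 4 were higher and 1 lower in light damage and 5 higher in nanoceria. The summed level of those 11 was 5.50 to 11.2 CPM (median 7.14) in light damage and 11.04 to 22.6 CPM (median 13.5) in control. In nanoceria their sum was 26.3 to 37.6 CPM (median 31.3). For light damage the count of markers called higher thus does not show a rise of the sum. Of 8 rod markers 7 were lower in nanoceria plus light than in nanoceria, 6 in vehicle plus light than in vehicle and 7 in light damage than in control. In light damage over control edgeR called 2 of 6 Mueller glia and 3 of 5 pigment epithelium markers lower, and 0 of 7 lens and 0 of 2 red blood cell markers, with 0 and 1 at an unadjusted p under 0.05. In vehicle plus light over vehicle 2 of 7 lens markers were lower, 5 at an unadjusted p under 0.05, with a median of -2.74 log2. In vehicle over control edgeR called 0, 7 at an unadjusted p under 0.05, with a median of 2.53. Their summed level was 813 to 1447 CPM in vehicle plus light, 990 to 11552 CPM in vehicle, the highest in replicate 1, and 141 to 2592 CPM in control. The part of lens RNA in the members' values was not tested. The part of leukocyte number in the changes of the oxidase genes was not tested.

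**Figure D4:**
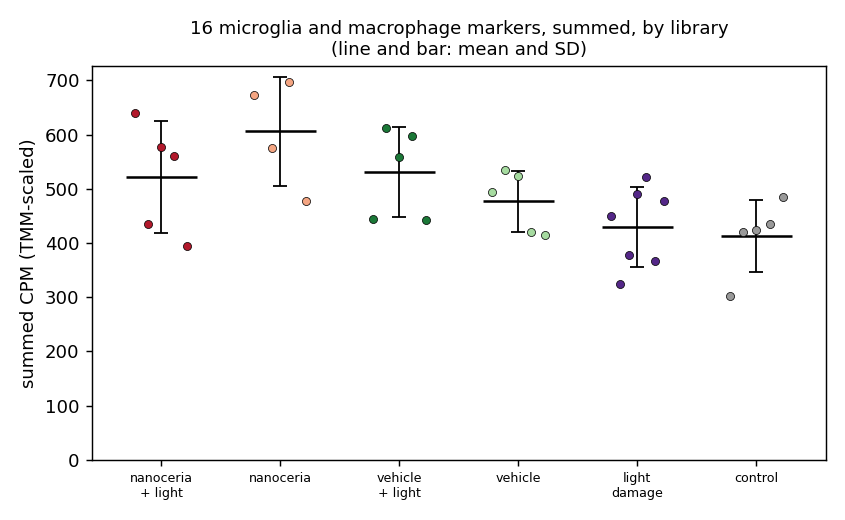
Summed CPM of 16 microglia and macrophage markers in each library (points), by group, with the mean (line) and SD (bar) and an axis that starts at 0. The sums lay at 477 to 698 CPM in nanoceria and 323 to 521 CPM in light damage, against 303 to 484 CPM in control.

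Each member was also set against the microglia and macrophage markers of its own library, as its log2 CPM minus their mean log2 CPM, over 6 members and 9 pairs of groups (54 exact 2-sided permutation tests, 21 under an unadjusted p of 0.05 and 3 after Benjamini-Hochberg adjustment). Cybb stood at 0.957 ± 0.0915 in light damage (SD, n = 7) and 0.435 ± 0.137 in control (n = 5), 0.52 higher (exact permutation p = 0.00253, adjusted 0.0455), but with the median of the markers in place of their mean the difference was -0.08 (exact permutation test, adjusted p = 0.898). Nox4 was 0.61 higher against the markers in light damage than in control (exact permutation p = 0.00253, adjusted 0.0455), and 0.01 higher with the marker median (adjusted 0.992). Cybb was 0.30 lower against them in vehicle plus light than in light damage (exact permutation p = 0.00253, adjusted 0.0455), with -0.0056 by the marker median (adjusted 0.992). All 3 calls thus rest on the mean over the markers. They were also lost with any 1 library left out, at adjusted exact permutation p-values between 0.0584 and 0.107. The p of 0.00253 is the smallest that groups of 7 and 5 libraries allow, and smaller groups allow only larger ones. That loss therefore does not tell whether the differences are fragile. With 1 library left out they ran from 0.48 to 0.56 for Cybb and 0.52 to 0.67 for Nox4 in light damage over control. For Cybb in vehicle plus light over light damage they ran from -0.35 to -0.23. In nanoceria over control Cybb was 0.25 higher against the markers (exact permutation p = 0.0159, adjusted 0.0857), Ncf1 0.13 higher (p = 0.222, adjusted 0.324) and Cyba 0.90 lower (p = 0.0159, adjusted 0.0857, exact permutation tests). The p of 0.0159 is the smallest that groups of 4 and 5 libraries allow. For Cybb and Cyba the missed threshold therefore does not show a lack of difference.

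The members were also compared library by library within groups. The correlation of log2 deviations from the group means was computed for all 15 pairs over 29 libraries, with each near-identical pair averaged to 1. After adjustment 12 of 15 pairs passed by Pearson's r and 9 by Spearman's rho, and 3 passed by neither. The share of all gene pairs that would pass was not computed, and libraries share depth and cell content. These counts are therefore a description and do not set the members apart from other genes. It was highest for Cybb and Ncf1 (Pearson r = 0.759, permutation p = 1e-05, the smallest 100000 permutations can give, adjusted 0.00015; Spearman rho = 0.727, adjusted permutation p = 0.000525). Next were Ncf4 and Rac2 (r = 0.720, rho = 0.683, adjusted permutation p = 0.00055 and 0.0014) and Cybb and Rac2 (r = 0.702, rho = 0.732, adjusted permutation p = 0.00055 and 0.000525). Leaving out the pair of libraries farthest from the median of the first gene gave r = 0.735, 0.604 and 0.643 for these 3 pairs. Ncf4 and Nox4 had the weakest relation (r = 0.266, rho = 0.266, adjusted permutation p = 0.206 and 0.201). Cyba, whose group means did not differ by a called amount, still followed Cybb within groups (r = 0.625, adjusted permutation p = 0.00877; rho = 0.422, adjusted permutation p = 0.0715), and this fell to r = 0.420 without nanoceria plus light replicate 5 and vehicle plus light replicate 2.

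**Figure D5:**
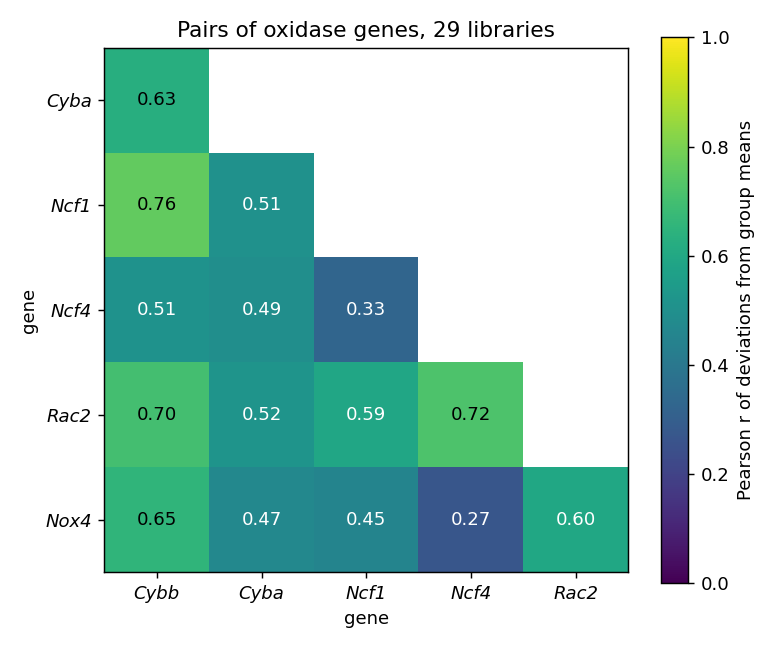
Pearson r between members over 29 libraries, on log2 CPM after the mean of each group was taken out; colour and number give r. The highest cell is Cybb with Ncf1 at 0.76 and the lowest Ncf4 with Nox4 at 0.27.

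The same deviations, set against those of 18088 other genes over 31 libraries, gave genes among the 3 most like each member, as a description of libraries that share depth and cell content. For Cybb they were Tlr8 (r = 0.908), an RNA sensor of myeloid cells, Tnfaip8l2 (0.902) and Pik3r6 (0.902). For Ncf1 they included Tifab (0.931) and Nckap1l (0.9004), a leukocyte actin regulator. Ncf4 was closest to Gna15 (0.922) and to the kinase genes Syk (0.906) and Lyn (0.904), and Rac2 had Pik3cg (0.839), a kinase gene, and Runx3 (0.834) among its closest. Cyba was closest to Ifi27 (0.855), an interferon-induced gene, AABR07011996.1 (0.839) and Sept10 (0.806). The list of Nox4 held the chemokine gene Ccl11 (0.860), Clic2 (0.851) and the growth factor receptor gene Fgfr1 (0.822).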

How the data were processed

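The values the authors deposited are whole-number counts for each gene, without normalisation as far as the values show. Per the submitters' processing notes the tools were Trimmomatic 0.39, STAR 2.7.9a, featureCounts of Subread 2.0.1, DESeq2 1.30.1 and R 4.0, on rn6. The sources used here do not give the strand setting, annotation release or treatment of multiply mapped reads, so reads shared with overlapping genes cannot be told apart. Of 42 labelled samples 31 had a count column, and 11 were not analysed here.

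All 31 libraries (total counts 25158407 to 182162368, median 106887932) entered 1 robust quasi-likelihood fit (edgeR 4.0.16, R 4.3.3) with TMM scaling and 1 coefficient per group, after filterByExpr (count at least 10, total at least 15). P-values were adjusted by Benjamini-Hochberg over the 18094 genes kept of 32623, with calls made below 0.05. The contrasts were 9 pairs of groups, 3 averages and 3 interactions, several of which share control libraries. Log2 CPM used a prior count of 2. Permutation tests used scipy 1.17.1. P-values measure the spread between the labelled libraries. The fit was checked on simulated counts for light damage over control alone, with a pass mark set only for 4-fold changes. Recovery of smaller changes, averages and interactions was not judged by that check. The members, the gene lists (oxidase partners, oxidase activators and cell type markers) and the rule for genes named (all members, up to 4 called genes per oxidase list and comparison, and the 3 genes most like each member) were chosen with earlier results of these data known. Some genes are not reported here and were left out of lists and counts of listed genes. Of 123 listed genes 10 had no match in the file. Alternatives were DESeq2 1.42.0 size factors or library size alone, no filter, only the groups compared, the DESeq2 Wald test, limma-voom (limma 3.58.1) with sample weights, a replicate block, a term for Y-linked transcripts, near-identical libraries summed, and each library left out. Limma-voom with near-identical libraries summed was added after the data were seen. Protein sequences were not used here.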

Additional observations from a re-analysis of the deposited data

Results flagged for a closer look

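In 5 of 36 groups of a gene's values (6 genes in 6 groups), 1 library lay farther from the rest than Dixon's 95% limit allows, where chance alone flags about 1 group in 20. Cybb was 40.7 CPM in vehicle plus light replicate 2, against 25.4 CPM in the next highest library of that group, and without it the log2 fold change of vehicle plus light over vehicle, called neither way, was 0.07. Ncf1 was 6.08 CPM in light damage replicate 2, with the next lowest at 9.34 CPM. Nox4 was 1.97 CPM in nanoceria replicate 2, against 1.299 CPM in the next highest. Cyba was 20.2 CPM in control replicate 6, with 17.5 CPM next, and 19.6 CPM in vehicle replicate 1, with 17.4 CPM next.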

How the results depend on the processing

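The number of members called in nanoceria over control was 2 under every alternative run. In light damage over control it was 4, and 5 with limma-voom, 3 with the Y-linked term, 2 with near-identical libraries summed (edgeR or limma-voom) and 2 to 4 with 1 library left out. The light average gave 3, and 5 with limma-voom, 5 with scaling by library size alone, 2 with DESeq2 size factors, no filter, the Y-linked term or near-identical libraries summed (edgeR), and 1 to 4 with 1 library left out. Both injections over control without light gave 2, and 1 with near-identical libraries summed (edgeR or limma-voom), 0 with the Y-linked term and 0 to 2 with 1 library left out. Counts of 0 became 2 with DESeq2 in the interaction of nanoceria with light (0 to 1 with 1 library left out), 1 with limma-voom, near-identical libraries summed or not, in nanoceria plus light over nanoceria (0 to 1), 2 with limma-voom in nanoceria over vehicle, and 4 with limma-voom and 2 with library size alone in vehicle plus light over vehicle (0 to 2). Limma-voom on summed libraries was chosen after seeing the data. Replicate numbers were not taken as pairs: same-numbered libraries of different groups had a median r of 0.0780 (23 of 60 over 0.1), against -0.0058 for different numbers (75 of 338 over 0.1), and 12 of 31 correlated best with their own number, a hint from the data, not the design. Running numbers in the library names follow the replicate number across groups. With a replicate block the counts were 2 for light damage over control (Ncf1 and Rac2 lost), 1 for the light average (Rac2 and Ncf4 lost) and 0 for both injections over control (Cybb and Ncf1 lost). The direction turned for Cyba in the light average, called neither way (0.0372 with library size alone), and for the called ratio of Cybb to the markers in light damage over control (-0.0774 with the marker median). With 1 library left out, Cybb ran from -0.195 to 0.0903 and Rac2 from -0.0559 to 0.293 in vehicle plus light over light damage, Ncf1 from -0.17 to 0.18 in nanoceria plus light over vehicle plus light, and Ncf4 from -0.20 to 0.27 in both injections over control, -0.24 to 0.35 in nanoceria over control, -0.14 to 0.30 in nanoceria over vehicle and -0.27 to 0.18 in vehicle over control. Of 2827 recomputed fold changes, a further 165 crossed 0 by less than 1 SE, 118 of them with 1 library left out. They were called in neither fit and are not listed here. The cause of these shifts was not tested. Over all genes, edgeR, DESeq2 and limma-voom called 445, 727 and 1275 in nanoceria over control, 0, 40 and 1486 in nanoceria over vehicle, 4, 52 and 2212 in vehicle over control and 193, 534 and 1593 in both injections over control. Scaling by library size alone put the median of all genes at 0.12 in vehicle plus light over vehicle, against 0.02 with TMM. Nox4 had the fewest counts of the members, 60 to 528 per library.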
